A study of Mus musculus with 20 samples.

Results

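Interstitial cells of Cajal (ICC) are the pacemaker cells of the gut muscle. They depend on the receptor tyrosine kinase KIT, its ligand KITL (stem cell factor), the calcium-activated chloride channel ANO1 that carries their pacemaker current, and the ETS transcription factor ETV1, which acts downstream of KIT. The transcripts of these 4 genes, *Kit*, *Kitl*, *Ano1* and *Etv1*, were chosen by symbol and followed through 12 RNA libraries and 4 lists of accessible chromatin peaks. All 4 were among the 43280 gene symbols of the count tables, and all 4 passed the filter on low counts in both the embryonic set (16218 genes tested) and the adult set (15039 genes tested).

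KITL on a neighbouring cell binds KIT and starts signalling through SRC family kinases, PI3 kinase and the RAS-ERK cascade, and ERK activity stabilises ETV1. In the gut, KIT and ANO1 mark ICC, while smooth muscle and other stromal cells supply KITL. KIT is also made by mast cells and by melanocyte and blood precursors, so the markers of those cells were read beside it. EED, the gene product removed in the knockouts, is a core subunit of Polycomb repressive complex 2 and keeps developmental genes silent through histone methylation.

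Embryonic samples were mesenchyme of the intestine or stomach at E13.5, sorted as live GFP+ cells. The labels give the strain of all samples as C57BL/6, while the methods of the study describe mixed backgrounds for the mice, including the *Eed* and reporter lines. Controls carried Bapx1-cre;Rosa26mTmG and *Eed* KO embryos carried Eedfl/fl;Bapx1-cre;Rosa26mTmG, so all embryonic groups shared the Cre and the reporter, in which cells that have expressed Cre, and their descendants, change from Tomato to GFP. There were 2 RNA libraries for each of the 4 embryonic groups, and 2 ATAC-seq samples for each, pooled by the authors into 1 peak list per group. Adult samples were GFP+ stroma of the small intestine, without villi or epithelium, from mice of about 10 weeks given tamoxifen on 5 days. By the methods of the study, controls carried Pdgfrb-CreERT2;Rosa26mTmG and *Eed* KO mice carried Eedfl/fl;Pdgfrb-CreERT2;Rosa26mTmG. There were 2 control and 2 *Eed* KO libraries, taken 2 days after the last dose. GFP therefore marks cells in which the Bapx1 or the Pdgfrb driver was active, not ICC as such. How many embryos or mice each library holds is not given in the sources used here, so the p-values measure only the spread between these libraries.

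Libraries held 30236159 to 39606157 gene counts in the embryo and 11404712 to 15903642 in the adult. A count of 0 in the smallest library allowed up to 0.0992 CPM (counts scaled to a common library size) in the embryonic set and 0.263 CPM in the adult set, from 3 counts and for counting error only. *Eed* itself was at 38.1 to 41.5 CPM in the 4 embryonic controls and at 7.40 to 11.5 CPM in the 4 embryonic KO libraries. In the adult it was at 29.7 and 33.4 CPM in controls against 25.7 and 25.05 CPM in KO. This log2 fold change of -0.32 (SE 0.21, edgeR adjusted p = 0.317) did not pass the test, so the adult KO libraries are named by their label. The study separately measured *Eed* deletion efficiency in isolated pericryptal (crypt-adjacent) cells, and those values were not read here. The 7 mesenchyme markers summed to 13293 CPM or more in every library, and the 8 pericyte markers to 11619 and 13534 CPM in the adult controls.

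The promoters of all 4 genes lay in open chromatin in every embryonic condition. Each of the 4 lists held a broad peak within 1000 bases of the first annotated start of *Kit*, *Kitl*, *Ano1* and *Etv1*, against 87.9% to 89.0% of the 16200 tested genes with coordinates, so a promoter peak did not set these genes apart. Fold enrichment is the read pileup at the peak over the local background, as MACS2 reports it for the pooled replicates, and has no replicate error here. At *Kit* (chr5:75574654-75576012 in the control intestine, mm10, over exon 1) it was 5.80 in the control intestine, 5.82 in *Eed* KO intestine, 5.80 in the control stomach and 5.66 in *Eed* KO stomach.

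The *Kitl* promoter peak (chr10:100015444-100016701, over exon 1) had a fold enrichment of 6.71, 6.58, 6.47 and 6.07 in the same order. At *Etv1* (chr12:38778356-38780602, over its first exons) the values were 4.21, 4.38, 4.41 and 4.48, above only 13.47% to 20.0% of the promoter peaks of tested genes. The peak counted for *Ano1* (chr7:144752837-144753927) lay just upstream of the first annotated start and did not cover it, with fold enrichments of 6.33, 5.46, 5.75 and 5.62. The start of the principal *Ano1* transcript, further into the gene, lay in a broader and lower region (chr7:144736283-144741334) at 2.61, 2.61, 2.93 and 2.93. The median promoter peak of all tested genes stood at 6.91, 6.46, 6.80 and 6.69, and the 4 members stood above 13.47% to 51.7% of those peaks.

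The 250 bases before the RefSeq start of each gene are shown because this is the sequence that lies under or beside those peaks (GRCm38.p6, on the strand of the gene, 5′ to 3′). Capitals mark matches on either strand to 5 letter strings, namely the GC box GGGCGG, the ETS core CGGAAG, the TATA box TATAAA, the forkhead string TGTTTAC and the E-box CAGCTG.
Kit, chr5:75574737-75574986, plus strand: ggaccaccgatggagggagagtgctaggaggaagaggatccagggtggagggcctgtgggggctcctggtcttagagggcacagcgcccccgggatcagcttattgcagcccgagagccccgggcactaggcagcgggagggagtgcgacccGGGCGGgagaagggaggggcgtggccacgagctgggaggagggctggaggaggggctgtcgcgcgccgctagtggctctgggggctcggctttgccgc
Kitl, chr10:100015571-100015820, plus strand: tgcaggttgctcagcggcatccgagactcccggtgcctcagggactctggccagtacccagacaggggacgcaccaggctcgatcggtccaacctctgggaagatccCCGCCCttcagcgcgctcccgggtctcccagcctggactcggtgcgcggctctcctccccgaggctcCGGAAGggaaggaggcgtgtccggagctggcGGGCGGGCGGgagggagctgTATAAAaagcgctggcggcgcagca
Ano1, chr7:144738574-144738823, minus strand: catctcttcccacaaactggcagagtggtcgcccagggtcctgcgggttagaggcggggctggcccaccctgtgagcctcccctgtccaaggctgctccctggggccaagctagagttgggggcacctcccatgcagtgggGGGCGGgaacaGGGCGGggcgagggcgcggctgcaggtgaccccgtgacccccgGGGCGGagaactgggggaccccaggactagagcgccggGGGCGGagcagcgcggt
Etv1, chr12:38779832-38780081, plus strand: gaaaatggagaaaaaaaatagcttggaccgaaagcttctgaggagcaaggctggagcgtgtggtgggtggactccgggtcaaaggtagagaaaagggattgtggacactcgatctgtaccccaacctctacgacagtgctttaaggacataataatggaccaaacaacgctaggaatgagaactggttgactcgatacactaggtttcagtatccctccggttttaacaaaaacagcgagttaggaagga

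These promoter windows differed in composition. *Kit* and *Etv1* each had 2 promoter entries, and only the first of each was read. *Kit*, *Kitl* and *Ano1* had G and C contents of 70.8%, 69.2% and 72.0% with 17, 23 and 16 CpG dinucleotides, against a median of 52.4% and 6 over 32851 promoters of the same length. *Etv1* had 46.4% and 9. The GC box occurred 1 time in *Kit*, 3 times in *Kitl* (a pair of matches overlapping) and 4 times in *Ano1*, and is present in 32.7% of all promoters. *Kitl* also held the only ETS core of the set, at -76 to -71, and the only TATA box, at -25 to -20, strings found in 13.6% and 12.4% of promoters. No forkhead string (3.2% of promoters) and no E-box (13.0%) was found in these windows, and the *Etv1* window read here held none of the 5 strings.

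Within the gene bodies and the 10000 bases upstream, fold enrichment often differed more between the lists than at the promoters, where peaks were mostly stronger. At *Kit* the -log10 q, the significance MACS2 gives a peak, was 37.8 to 48.3 at the promoter. At the intron 1 region described next it was 3.21 to 10.02. The part of peak strength in these differences was not tested. *Kit* had 11 regions over the 4 lists, of which 2 were in all 4, the promoter and an intron 1 region 21.6 kb into the gene (chr5:75596251-75596864). Fold enrichment at this intron 1 region was 2.93 in the control intestine and 4.47 in *Eed* KO intestine, and 3.35 in the control stomach and 4.62 in *Eed* KO stomach. The KO over control ratio was 1.52 in the intestine, above 98.5% of the 87884 regions in both lists, and 1.38 in the stomach, above 93.6% of 91607, where the median ratios were 0.965 and 1.00. The central 200 bases of the part shared by the lists are given because this was the only *Kit* region in all 4 lists besides the promoter. Another intron 1 region at 14.9 kb had no control intestine peak and stood at 2.47 (-log10 q 1.33) in *Eed* KO intestine. It stood at 2.62 in the control stomach and 3.05 in *Eed* KO stomach. The *Kit* regions did not share a direction. The intron 1 region at 24.963 kb stood at 3.24 in the control stomach and 2.72 in *Eed* KO stomach, and in the intestine had a peak only in KO (2.39). The region at 49.455 kb had peaks in both control lists (2.49 and 2.51) and in neither KO list. Regions at 53.52, 63.75 and 67.258 kb were in 1 control list each, and those at 6.494 and 27.152 kb in 1 KO list each. The sequence of the region at 21.6 kb is all in lower case, since none of the 5 strings occurs in it.
Kit intron 1, chr5:75596416-75596615, plus strand: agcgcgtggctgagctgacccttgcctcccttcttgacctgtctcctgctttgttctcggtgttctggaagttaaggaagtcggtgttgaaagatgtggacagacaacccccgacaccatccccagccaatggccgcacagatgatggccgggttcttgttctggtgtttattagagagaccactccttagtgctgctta

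*Kitl* had 8 regions, 5 of them in all lists, *Ano1* 26 with 10 in all, and *Etv1* 8 with 4 in all, against 46.0% of 162113 regions genome-wide. The highest fold enrichment of any member was at an *Etv1* intron region 64.7 kb into the gene (chr12:38843659-38844405), at 9.13 and 8.20 in control and *Eed* KO intestine and 8.74 and 8.98 in control and *Eed* KO stomach. A further *Etv1* region at 85.1 kb (chr12:38863936-38865037) stood at 5.46 in the control intestine, 3.79 in *Eed* KO intestine, 3.37 in the control stomach and 2.79 in *Eed* KO stomach, the same order as the mean *Etv1* CPM of those groups (100.3, 57.5, 49.1 and 35.5). This region was singled out after its values were seen. An intron 2 region of *Kitl* at 37.9 kb (chr10:100052546-100054574) stood at 3.97 and 5.76 in control and *Eed* KO intestine and at 5.64 and 4.62 in control and *Eed* KO stomach. With 1 list per group, none of these differences in fold enrichment could be tested.

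**Figure D1:**
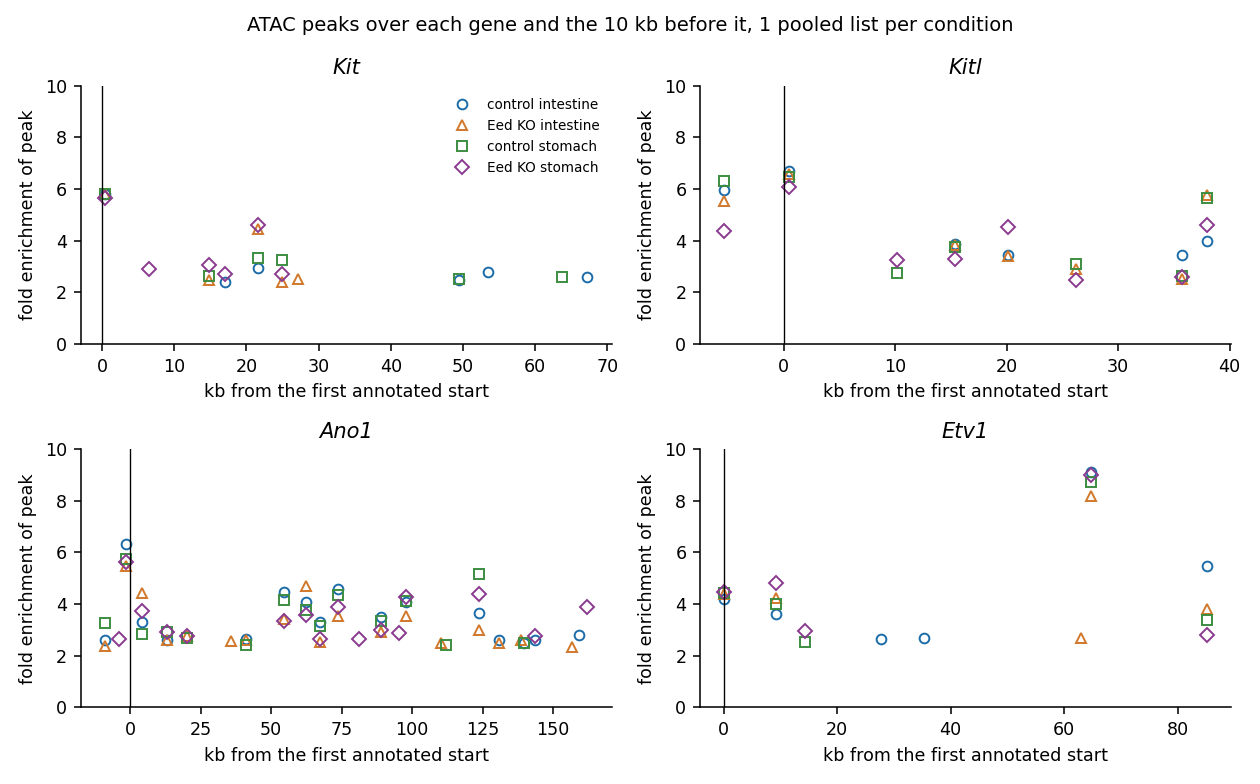
Fold enrichment (linear axis) of accessible regions of *Kit*, *Kitl*, *Ano1* and *Etv1* against distance in kb from the first annotated start, with 1 symbol for each of the 4 embryonic conditions. Promoter points of the conditions nearly coincide, while the *Kit* point at 21.6 kb lies higher in both *Eed* KO lists (4.47 and 4.62) than in the control lists (2.93 and 3.35).

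In the control intestine *Kit* was the most abundant of the 4 transcripts. In TPM, a scale that divides by exon length so that genes can be compared, it stood at 165 ± 1.64 (SD, n = 2), above *Ano1* at 67.8 ± 9.42, *Etv1* at 51.0 ± 1.40 and *Kitl* at 42.5 ± 5.58. No neighbours in this order overlapped between libraries. In the control stomach the order was *Kit* at 129.9 ± 20.6, *Ano1* at 60.2 ± 2.73, *Kitl* at 35.8 ± 1.34 and *Etv1* at 25.3 ± 0.779 TPM, again with no overlap, so *Kitl* and *Etv1* had changed places. The *Kit* level exceeded that of 95.4% of the 21697 genes detected in the control intestine.

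*Etv1* was the member with the largest difference between the control organs and the only one past the test. It was at 104 and 96.8 CPM in the control intestine against 47.9 and 50.2 CPM in the control stomach. Both intestinal libraries stood well above both gastric ones, and *Etv1* was 2.04-fold higher (log2 1.03, 95% interval 0.74 to 1.33, edgeR quasi-likelihood adjusted p = 0.00335). It was the 1 of 4 members called with an adjusted p under 0.05 and a fold of more than 2 (1 on the log2 scale), as were 5.07% of all genes tested (1.68% higher in the intestine). The call sat at the fold limit, since the log2 value was 0.99 without the first control intestine library and just under 1.00 without the first control stomach library. It was 0.98 with 1 RUVg factor of unwanted variation from the spike-in transcripts, and with scaling to the spike-ins, which shifted the median gene by 0.30, no member kept an adjusted p under 0.05 (0.985 for *Etv1*, edgeR).

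*Kit* stood at 328 and 313 CPM in the control intestine and at 277 and 222 CPM in the control stomach. The intestinal libraries were both higher, but the difference (log2 0.36, interval 0.05 to 0.67) had an adjusted p of 0.198 by edgeR. *Kitl* was at 90.9 and 73.1 CPM against 69.6 and 66.2 CPM (log2 0.27, interval -0.09 to 0.63), also without overlap. *Ano1* was at 131 and 105 CPM against 106 and 99.996 CPM, which overlapped, with a log2 value of 0.20 (interval -0.24 to 0.63). *Kit*, *Kitl* and *Etv1* were thus higher in both intestinal libraries, a separation that 51.2% of all genes showed in either direction and 24.5% in this one. In sorted bulk cells, fewer cells of a type and less RNA per cell cannot be told apart, here and in each comparison that follows.

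Of 19 other ICC genes, 2 were higher and 1 lower in the control intestine, with a median log2 fold change of 0.07 against 0.00 for all genes tested. *Thbs4*, a matricellular protein of mature ICC, was higher by 4.03 and *Cd44*, a hyaluronan receptor with wide expression, by 1.96 on the log2 scale, while the neurokinin receptor gene *Tacr1* was lower (-1.51). The 19 genes summed to 2068 and 2074 CPM in the intestinal libraries and to 1722 and 1783 CPM in the gastric ones. Smooth muscle markers moved the same way for 2 of 12 genes (*Synpo2* 1.25 and *Des* 1.18), with summed levels of 3421 and 4865 CPM in the intestine and 3297 and 3433 CPM in the stomach. Enteric neural crest genes summed to 208 and 195 CPM in the intestine and to 55.5 and 67.0 CPM in the stomach, with 1 of 8 called, *Ednrb* (1.87), an endothelin receptor that made up most of the sum. The median of the 8 genes was -0.17. Endothelial markers had 4 of 8 called higher (*Pecam1* 2.51 and *Cdh5* 1.80 among them) and *Esam* lower (-1.55), with a median of 1.46 and sums of 16.8 and 22.5 CPM against 19.6 and 18.7 CPM. *Kcnn3*, 1 of 7 PDGFRA+ genes called, was higher (1.38, list median -0.09), as was *Rgs5*, 1 of 7 tested pericyte genes (1.09, list median 0.20). Of 8 epithelial genes 2 were called lower, *Epcam* (-1.83) among them, with a list median of -0.88. *Wt1*, 1 of 5 mesothelial genes (-1.04, list median -0.19), and *Dcn*, 1 of 7 mesenchyme genes (-1.81, list median -0.16), were also lower. The part of these cells in the *Etv1* difference was not tested.

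Mast cell and melanocyte markers were nearly absent from the embryonic libraries. The 10 mast cell genes summed to at most 0.960 CPM in any embryonic library, none passed the filter, and *Mcpt1*, *Mcpt2*, *Tpsab1* and *Fcer1a* were at 0 in all 8. The 6 melanocyte genes summed to at most 0.993 CPM, with *Dct* and *Tyrp1* at 0 in all 8. Blood progenitor and erythroid markers were low but present. The 10 genes summed to 6.99 to 16.6 CPM in the embryonic libraries, mostly from haemoglobin genes, *Myb* and *Epor* in the controls, with *Gata1* at 0 in all 4 controls. Of the 8 tested none was called between the control organs. In *Eed* KO 1 of 8 was called in each organ, *Tal1*, a transcription factor of blood and endothelial precursors. It was higher in the intestine (3.87) and in the stomach (4.92), while the medians of the 8 genes were -0.24 and -1.20. *Kit* stood at 6164 to 11671 counts in the same libraries, and the part of blood cells in it was not tested.

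**Figure D2:**
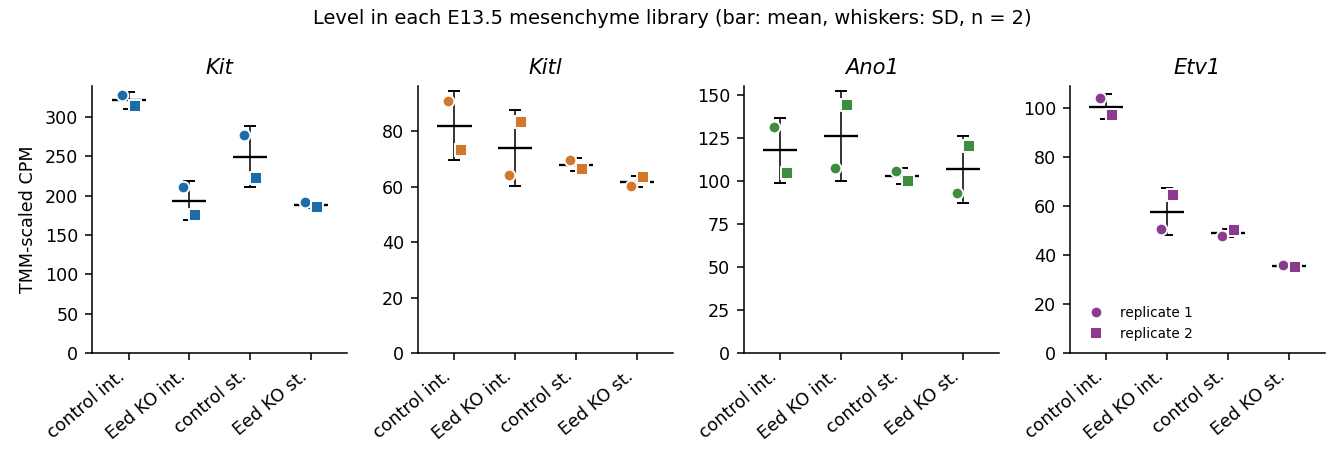
CPM of the 4 members (linear axis from 0) in each of the 8 embryonic libraries, grouped by organ and genotype, with symbols for the 2 replicates, bars for their mean and whiskers for the SD. *Etv1* shows both control intestine libraries (104 and 96.8 CPM) apart from all others, and *Kit* is highest in the control intestine and lowest, with the organs level, in *Eed* KO.

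Loss of *Eed* went with lower *Kit* and *Etv1* in the intestinal mesenchyme, while *Kitl* and *Ano1* stayed within the spread of the libraries. *Kit* was at 211 and 176 CPM in *Eed* KO intestine, against 328 and 313 CPM in the control, with both KO libraries below both controls. The log2 fold change was -0.73 (SE 0.13, interval -1.04 to -0.42, edgeR adjusted p = 0.0347), or 0.604 of the control level. *Etv1* was at 50.8 and 64.3 CPM against 104 and 96.8 CPM, again with both KO libraries lower, with a log2 value of -0.80 (SE 0.13, interval -1.10 to -0.51, edgeR adjusted p = 0.0205), or 0.573 of control.

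Neither reached the fold limit, so 0 of 4 members were called by edgeR and 0 by DESeq2, against 2.61% of all genes. At an adjusted p under 0.05 with no limit on the fold there were 2 by either tool, and 2 at an unadjusted p under 0.05, whereas 3.06% of all genes passed the adjusted limit and 0.407% passed it with a lower value in KO. Both genes missed the adjusted limit when only the 4 intestinal libraries were fitted (adjusted p = 0.0755 for *Kit* and 0.0724 for *Etv1*, edgeR). Leaving out the first or the second control intestine library also ended it, with edgeR adjusted p-values of 0.206 and 0.139 for *Kit* and 0.159 and 0.0987 for *Etv1*, as did leaving out the second KO library for *Kit* (0.115). The log2 values over the fits that left out 1 library were -0.87 to -0.60 for *Kit* and -0.98 to -0.64 for *Etv1*. With 1 factor of unwanted variation taken from the spike-ins (RUVg), *Kit* came to -0.54 with an edgeR adjusted p of 0.115, while *Etv1* came to -1.02 (adjusted p = 0.0241, edgeR) and would be called. Scaling to the spike-in transcripts shifted the median of all genes by 1.85, more than either difference, so that both genes lay above control in that scaling. The edgeR adjusted p there was 0.190 for *Kit* and 0.160 for *Etv1*. It was 0.0434 for *Kitl* and for *Ano1*, which would be called higher in KO, as were 13664 of the 16218 genes tested. Relative to that median *Kit* was at -0.79 and *Etv1* at -0.73.

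*Kitl* stood at 64.1 and 83.4 CPM in *Eed* KO intestine against 90.9 and 73.1 CPM in the control. *Ano1* stood at 108 and 145 CPM against 131 and 105 CPM. Both genes overlapped between the groups, with log2 fold changes of -0.15 (interval -0.51 to 0.20) and 0.10 (interval -0.34 to 0.53). With 1 RUVg factor *Ano1* turned to -0.38 and *Kitl* came to -0.46. *Kit* and *Etv1*, the 2 members lower in both KO libraries without overlap, compare with 38.3% of all genes that separated in either direction and 16.4% that were lower.

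None of the other 19 ICC genes was called in *Eed* KO intestine, with a median log2 value of -0.01 (all genes 0.01), and they summed to 1601 and 1925 CPM in KO. Genes of the enteric neural crest summed to 195 to 208 CPM in control and 97.7 to 169.6 CPM in KO, with 0 of 8 called. Their median log2 value was 0.55, so the sum and the median differed in direction. Endothelial markers rose from 16.8 to 22.5 CPM in control to 55.5 to 55.9 CPM in KO, with 4 of 8 called higher (*Cdh5* 2.80, *Tie1* 2.48, *Cldn5* 2.46 and *Esam* 1.82). Pericyte markers summed to 1489 and 1702 CPM in control and 981 and 1380 CPM in KO, with a median of -0.46. PDGFRA+ markers summed to 1638 and 1583 CPM in control and 1312 and 1492 CPM in KO, with a median of -0.26. Smooth muscle markers overlapped, at 4865 and 3421 CPM against 3799 and 6513 CPM, with a median of 0.43. None of these 3 lists held a called gene. Mast cell markers summed to 0.0571 CPM or less in KO. The part of these cells in the *Kit* and *Etv1* values was not tested.

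In the stomach both genes were also lower in *Eed* KO, by less. *Kit* was at 191 and 186 CPM in *Eed* KO stomach against 277 and 222 CPM in the control, and *Etv1* at 35.8 and 35.2 CPM against 47.9 and 50.2 CPM. The groups did not overlap for either gene, but edgeR gave log2 values of -0.40 for *Kit* (SE 0.13, adjusted p = 0.122) and -0.47 for *Etv1* (SE 0.13, adjusted p = 0.0696). With 1 RUVg factor these became -0.14 for *Kit* (adjusted p = 0.700) and -0.75 for *Etv1* (adjusted p = 0.0551) by edgeR, and with the replicate number as a block the edgeR adjusted p was 0.0274 for *Kit* and 0.0347 for *Etv1*. *Kitl* (60.3 and 63.3 against 69.6 and 66.2 CPM, log2 -0.14, or -0.53 with 1 RUVg factor) was lower in both KO libraries as well, and *Ano1* (93.4 and 121 against 106 and 99.996 CPM, log2 0.05, turning to -0.58 with 1 RUVg factor) overlapped.

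No member was called in the stomach by edgeR or by DESeq2, against 5.65% of all genes, with 2 of 4 at an unadjusted p under 0.05. DESeq2 put *Etv1* under the adjusted limit (0.0395), also without reaching the fold limit. The 3 members without overlap in CPM compare with 55% of all genes that separated in either direction and 27.3% of all genes that separated and were lower in KO. In TPM *Kitl* overlapped, at 32.9 and 35.9 in KO against 36.7 and 34.8 in control. Spike-in scaling shifted the median gene by 2.39, so that all 4 members lay above control in it. The edgeR adjusted p in that scaling was 0.0174 for *Kit*, 0.00849 for *Kitl*, 0.00656 for *Ano1* and 0.0187 for *Etv1*. All 4 would be called higher in KO on that scale, as were 15419 of the 16218 genes tested. Relative to that median *Kit* was at -0.39 and *Etv1* at -0.47. Among the other ICC genes, 3 of 19 were called lower (*Tacr1* -1.80, *Prkcq* -1.19 and *Lrig1* -1.02) and *Cd44* higher (1.10), with a median of -0.10 against 0.00 for all genes and summed levels of 1439 and 1483 CPM in KO. Endothelial markers summed to 30.0 and 52.7 CPM in KO against 18.7 and 19.6 CPM in control, with 5 of 8 called higher. *Tal1* of the blood list was higher as given above, against a list median of -1.20. Smooth muscle markers went down with *Kit* and *Etv1*, from 3297 and 3433 to 2163 and 2490 CPM, with 1 of 12 called lower (*Chrm3* -1.33). So did PDGFRA+ fibroblast-like markers, from 1979 and 2035 to 1488 and 1452 CPM, with 1 of 7 called lower (*P2ry1* -2.06). The part of these cells was not tested.

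The response to *Eed* loss could not be told to differ between the organs for any member. The difference of the log2 fold changes, intestine minus stomach, was -0.32 for *Kit* (interval -0.76 to 0.12), -0.34 for *Etv1* (-0.75 to 0.08), -0.02 for *Kitl* and 0.04 for *Ano1*, with edgeR adjusted p-values of 0.985 to 1.00. No member passed the limit of 0.2 used for this contrast, by edgeR or DESeq2, or an unadjusted p under 0.05, against 0.462% of all genes called.

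Among *Eed* KO embryos *Etv1* was higher in the intestine than in the stomach, while the *Kit* values of the organs overlapped. *Kit* was at 211 and 176 CPM in KO intestine and at 191 and 186 CPM in KO stomach, overlapping, with a log2 value of 0.04 (interval -0.27 to 0.35) whose sign turned under 2 other scalings. *Etv1* was at 50.8 and 64.3 CPM against 35.8 and 35.2 CPM, higher in both intestinal libraries, with a log2 value of 0.70 (interval 0.40 to 0.99, edgeR adjusted p = 0.0200). It stayed under the fold limit, so that 0 of 4 members were called by edgeR and by DESeq2, against 4.4% of all genes. It was the 1 member at an adjusted p under 0.05 (6.33% of all genes) and the 1 member at an unadjusted p under 0.05. The edgeR adjusted p was 0.101 when only the 4 KO libraries were fitted, 0.0911 without the first KO stomach library and 0.119 without the second. With spike-in scaling, which shifted the median gene by -0.24, it was 1.00. In CPM *Kitl* (log2 0.25) did not overlap and *Ano1* (log2 0.24) did, where 44.5% of all genes separated. In TPM *Kitl* overlapped as well. *Ano1* was higher in the intestine within both same-numbered pairs (108 against 93.4 CPM and 145 against 121 CPM), and with these pairs as a block its edgeR adjusted p was 0.04998, though the labels do not state that the numbers mark shared embryos.

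Smooth muscle markers moved with *Etv1* here. They summed to 3799 and 6513 CPM in *Eed* KO intestine and to 2163 and 2490 CPM in *Eed* KO stomach, with 5 of 12 called higher in the intestine (*Synpo2* 1.34, *Actg2* 1.31, *Des* 1.27 and *Tagln* 1.202 among them) and a median of 1.03. Of the other ICC genes *Thbs4* (1.93) and *Gucy1b3*, a subunit of the nitric oxide receptor (1.26), were higher and none of the 19 was lower. *P2ry1* was the 1 of 7 PDGFRA+ genes called (1.51, list median -0.002), and *Lyz2* the 1 of 4 tested leukocyte genes (1.31, list median 0.48). The mesothelial *Wt1*, 1 of 5 called, was lower (-1.23), against a list median of 0.22. The part of these cells in the *Etv1* difference was not tested.

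**Figure D3:**
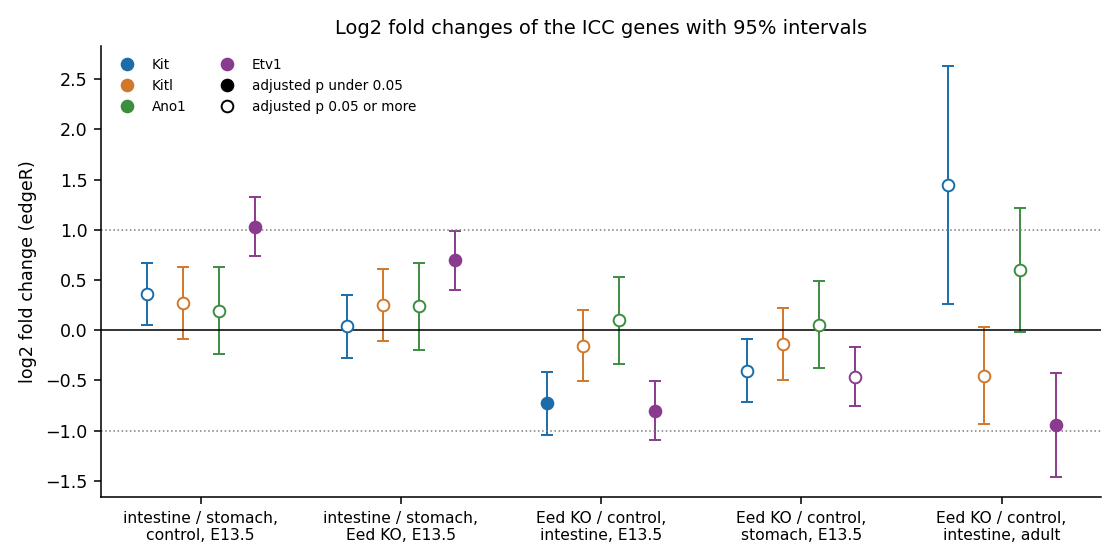
Log2 fold changes of the 4 members (points, edgeR) with 95% intervals (whiskers) in 5 comparisons, filled where the adjusted p was under 0.05, with dotted lines at the fold limits of 1 and -1. *Etv1* lies at 1.03 between the control organs and on the negative side in each *Eed* KO against control comparison (-0.80, -0.47 and -0.94), while *Kit* lies at -0.73 and -0.40 in the embryo and at 1.45 in the adult.

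In the adult stroma the order of the 4 transcripts was turned round. *Kitl* led at 134 ± 8.15 TPM (SD, n = 2), followed by *Etv1* at 28.9 ± 3.03, *Ano1* at 15.0 ± 3.92 and *Kit* at 5.72 ± 2.81 TPM, with no neighbours overlapping. *Kit* was thus 28.8-fold higher in TPM in the E13.5 control intestine than in the adult control intestine, *Ano1* 4.51-fold and *Etv1* 1.77-fold higher, while *Kitl* was 3.15-fold higher in the adult. Stage, Cre driver, sort and library kit changed together between these sets and cannot be told apart, so no test was made. The adult ICC genes beside the members summed to 1177 to 1434 CPM in control.

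**Figure D4:**
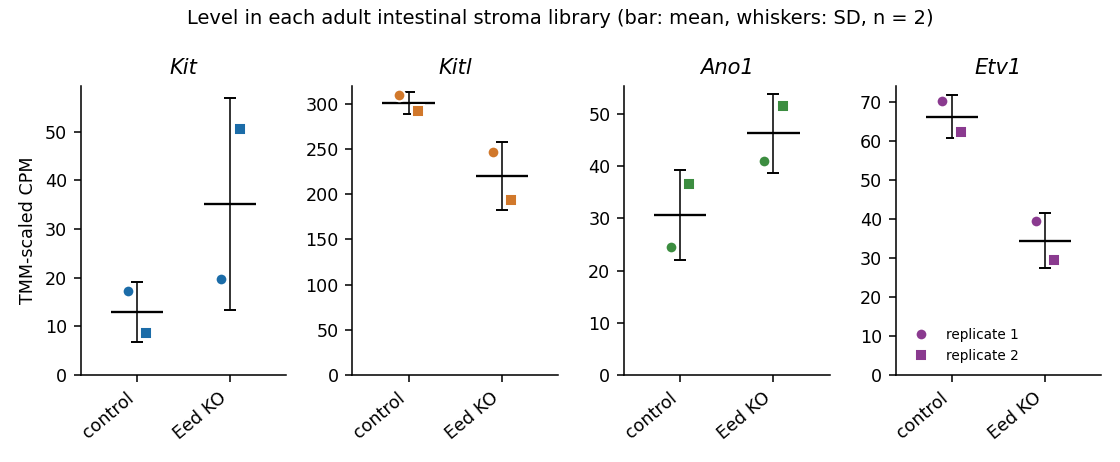
CPM of the 4 members (linear axis from 0) in the 2 adult control and 2 adult *Eed* KO libraries, with symbols for the 2 replicates, bars for their mean and whiskers for the SD. *Kitl* and *Etv1* are lower in both libraries labelled *Eed* KO, and the *Kit* mean of that group rests on libraries at 19.8 and 50.6 CPM.

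*Etv1* was lower in adult *Eed* KO stroma and *Kit* was higher, the latter with a wide spread. *Etv1* was at 39.4 and 29.5 CPM in KO against 70.3 and 62.3 CPM in control. Both KO libraries were below both controls, the second further than the first, with a log2 value of -0.94 (SE 0.22, interval -1.46 to -0.43, edgeR adjusted p = 0.0217), or 0.520 of control. It was the 1 of 4 members at an adjusted p under 0.05, against 23.5% of all genes (9.39% lower), and it stayed short of the fold limit. The edgeR adjusted p was 0.0921 without the first control library and 0.0730 without the second KO library, while with the first KO library left out the log2 value was -1.19, which would be called, as it would be at -1.02 without the second control library. With 1 RUVg factor the log2 value stayed at -0.94 and the edgeR adjusted p was 0.0667, and with spike-in scaling the adjusted p was 0.0829.

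*Kit* was at 19.8 and 50.6 CPM in KO (197 and 654 counts) against 17.3 and 8.62 CPM in control (236 and 123 counts). The first KO library lay just above the first control, and the second KO library far above both. The log2 fold change of 1.45 (SE 0.50, interval 0.26 to 2.63) had an edgeR adjusted p of 0.0801 and was not called, whereas DESeq2 called it (log2 1.45, adjusted p = 0.0198). Single libraries decided the value, which was 0.60 without the second KO library, 1.94 without the first KO library and 2.02 without the first control library, and the last 2 would be called. With 1 RUVg factor it was 0.83 (edgeR adjusted p = 0.225). In TPM the groups overlapped, at 6.21 and 14.3 in KO against 7.70 and 3.74 in control.

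*Kitl* stood at 246 and 193 CPM in adult KO against 309 and 292 CPM in control, with a log2 value of -0.45 (interval -0.93 to 0.03, edgeR adjusted p = 0.156). *Ano1* stood at 40.9 and 51.6 CPM against 24.5 and 36.6 CPM (log2 0.60, interval -0.02 to 1.21, edgeR adjusted p = 0.145). All 4 members separated without overlap in CPM, as did 65.3% of all genes, and by edgeR 0 of 4 were called, against 19.6% of all genes, with 2 at an unadjusted p under 0.05, while DESeq2 called 1 and had 3 at that unadjusted limit. On the TPM scale the log2 difference was -1.004 for *Kitl*, 0.03 for *Ano1* and -1.49 for *Etv1*, so the direction held for *Kitl* and *Etv1* and there was almost none for *Ano1*. Spike-in scaling shifted the median of all adult genes by -0.42, and relative to it the members stood at 1.48 (*Kit*), -0.43 (*Kitl*), 0.51 (*Ano1*) and -0.91 (*Etv1*).

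Markers of other cell types differed strongly between the adult groups. All 9 macrophage and leukocyte markers in the table were called higher in KO (median log2 4.97), and their summed level was 672 and 961 CPM in control and 19389 and 17549 CPM in KO. Pericyte markers summed to 13534 and 11619 CPM in control and 4532 and 3302 CPM in KO, with 3 of 8 called lower (*Rgs5* -1.73, *Kcnj8* -1.71 and *Abcc9* -1.11), and mesenchyme markers went from 25258 to 28507 CPM down to 13962 to 14848 CPM with 4 of 7 called lower. The 7 PDGFRA+ fibroblast-like markers had 4 called lower, led by *P2ry1* (-2.33), and *Cd81* higher (3.74).

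Mast cell transcripts, from a cell type that carries KIT, were present in the adult. They summed to 39.2 and 21.6 CPM in the first and second control library and to 47.5 and 59.7 CPM in the first and second KO library, the same order of libraries as *Kit*, with 0 of 6 tested called, a median log2 value of 1.05 and *Tpsab1* at 0 in KO. Blood progenitor and erythroid markers summed to 6.37 and 9.95 CPM in control and 16.7 and 12.8 CPM in KO, with 0 of 2 tested called. Smooth muscle markers summed to 2030 and 2481 CPM in control and 3338 and 3921 CPM in KO, with 3 of 12 called higher (*Cnn1* 1.34, *Actg2* 1.14 and *Myh11* 1.04). Of 18 tested ICC genes beside the members, *Slc12a2*, a chloride loader of ICC (1.41), and *Cd44* (1.28) were higher and the gap junction gene *Gja1* (-1.87) lower, with a median of 0.20. The part of any of these cell types in the member values was not tested.

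**Figure D5:**
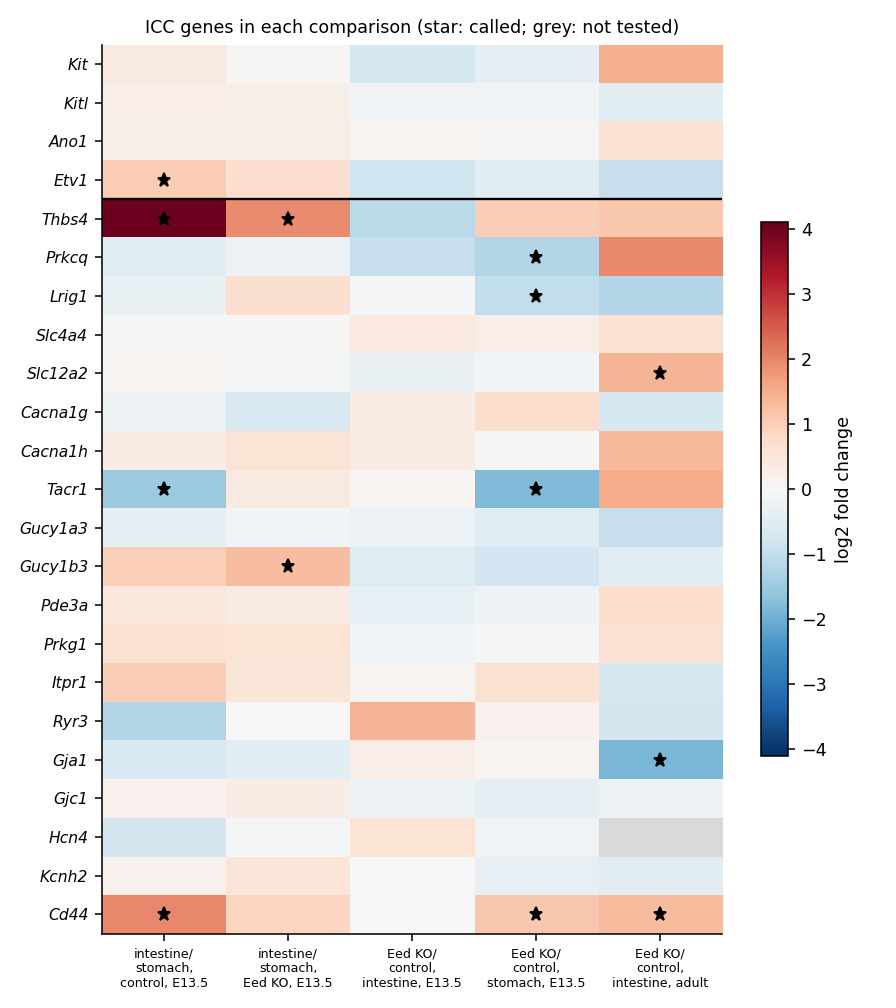
Log2 fold changes (colour) of the 4 members, above the line, and of 19 other ICC genes, below it, in 5 comparisons. Stars mark genes called by edgeR (adjusted p under 0.05 and more than 1 on the log2 scale, in either direction), and grey marks genes not tested. Of the members only *Etv1* between control organs has a star.

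Genes that work with the members were read from lists. Of 23 KIT signalling genes, 2 were lower in control intestine than control stomach (*Stat5a*, a transcription factor activated by cytokine receptors, -1.85, and *Socs1*, an inhibitor of that pathway, -1.47), with a median of 0.04. None was called in *Eed* KO intestine and 1 in *Eed* KO stomach, a gene at under 1 CPM, with medians of 0.05 and 0.03. In adult *Eed* KO stroma 6 were higher and none lower, with a median of 0.32. *Lyn*, a SRC family kinase (3.14), *Ptpn6*, a phosphatase that dampens KIT (3.04), *Grb2*, the adaptor to RAS (2.15), and *Dok1*, a docking inhibitor (1.98), led them, and all are also expressed in leukocytes, whose markers were higher in the same libraries.

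Among 11 genes of the other receptors of the KIT class and their ligands, 1 was called between the control organs, *Pdgfd* (-1.91), and it was also lower in *Eed* KO intestine than in *Eed* KO stomach (-1.87). In adult *Eed* KO stroma 4 were higher and 4 lower, led by *Csf1r*, the macrophage growth factor receptor (4.99), *Pdgfb* (3.51), *Pdgfc* (2.05) and *Pdgfra* (-1.79). None was called by *Eed* loss in either embryonic organ.

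Of the other anoctamins, 8 of 9 were tested in the embryo, and *Ano4* was called in 4 comparisons while *Ano1* was called in none. *Ano4* was lower in control intestine than control stomach (-1.32), higher in *Eed* KO of the intestine (1.15) and of the stomach (1.46), and lower in *Eed* KO intestine than in *Eed* KO stomach (-1.63). In the adult, *Ano5* (-2.72) and *Ano2* (-2.61) were lower of 5 tested.

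In the 14 genes of the ETV1 family and the ERK response, *Ccnd1*, the cyclin of the early cell cycle, was higher in *Eed* KO of the intestine (1.69) and of the stomach (1.01), and *Spry4*, an ERK feedback inhibitor, of the stomach (1.07). Between the control organs the ERK phosphatase gene *Dusp4* was higher (1.17) and the inhibitor gene *Il17rd* lower (-1.07) in the intestine, and *Il17rd* was lower there in *Eed* KO as well (-1.03). In the adult *Dusp5* (3.14) and *Etv5* (1.51) were higher and *Spry1* (-2.33) and *Il17rd* (-1.70) lower. The median of the list was 0.07 in *Eed* KO intestine, 0.27 in *Eed* KO stomach and 0.07 in the adult.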

How the data were processed

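RNA of 8 embryonic and 4 adult libraries was analysed from the gene counts that the authors deposited. They trimmed reads with Trimmomatic 0.32, aligned them to mm10 with STAR 2.5.1b and counted reads per GENCODE vM4 gene with featureCounts. Embryonic libraries were stranded and adult ones unstranded, so reads of overlapping antisense genes cannot be told apart in the adult. For ATAC-seq, reads aligned with BWA 0.7.8 were pooled over replicates and broad peaks called with MACS2 2.1.2, and the deposited lists give fold enrichment (a ratio) and −log10 q values.

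Here each set of counts was fitted across all genes with edgeR 4.0.16 (TMM scaling, filterByExpr, quasi-likelihood test, Benjamini-Hochberg adjustment). Calls needed an adjusted p under 0.05 (0.2 for the difference between organs) and a difference of more than 1 on the log2 scale, in either direction. CPM use TMM-scaled library sizes. TPM were computed from vM4 exon lengths. Scripts were tested on simulated data. The study itself normalised counts with RUV-seq on the spike-ins and tested with DESeq2, and gives no number of factors. Here the RUVg factor was fitted in edgeR, and DESeq2 was run without it. Alternatives were DESeq2 1.42.0, no filter, spike-in scaling, 1 RUVg factor, a replicate block, fitting only the libraries compared, leaving out each library, and other peak windows and limits. For the marker and pathway lists, counts, sums or medians are given in part of the comparisons. Genes named as called have a mean of at least 1 CPM, at most the 4 with the largest change. Lists not mentioned in a comparison can also hold called genes. The members and lists were chosen with earlier results of these data known. 1 gene of the ICC list is not reported here.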

Additional observations from a re-analysis of the deposited data

Results flagged for a closer look

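*Kit* differed in opposite directions between *Eed* KO and control in the embryo and in the adult. The log2 fold change in the adult intestine minus that in the embryonic intestine was 2.17, and minus that in the embryonic stomach it was 1.85. In CPM every adult KO library was above every adult control library, while every embryonic KO library was below every control library of its organ. This separation was part of the rule that flagged *Kit*, so it adds no support. Of all genes, 65.3% separated in either direction in the adult. In *Eed* KO of the embryonic intestine and stomach, 16.4% and 27.3% separated with lower values. The difference between the stages was not tested, because stage, Cre driver, sort and library kit cannot be told apart. The adult direction has its own limits, since adult *Kit* was not called by edgeR (log2 1.45, adjusted p = 0.0801) and the adult groups overlapped in TPM. The embryonic direction depended on the scaling. On the spike-in scale itself *Kit* lay above control in *Eed* KO of both embryonic organs. With 1 RUVg factor it stood at -0.54 in the intestine and -0.14 in the stomach.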

How the results depend on the processing

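With 2 libraries per group, counting error was small for the members (123 counts or more per library) and the spread between libraries set the limits. Values with spike-in scaling are given relative to the shifted median gene, while their adjusted p-values belong to the spike-in scale itself. On the spike-in scale itself all 4 members lay above control in *Eed* KO of both embryonic organs. On it all 4 would be called higher in the stomach, and *Kitl* and *Ano1* in the intestine. Of the settings tried for single genes and their shared peak regions, 247 kept the result, 20 turned the direction, 6 moved the value, 7 gained and 4 lost a call. Kept means the same direction and side of the threshold, or a close value for TPM levels and peak regions, which had no test. All 6 that moved were of this untested kind. Spike-in fits entered with the value relative to the shifted median gene, so members above control only on the spike-in scale itself are not among the 20. The cause was not tested. Between the control organs the 1 called member was lost with spike-in scaling (0 members) and with 1 RUVg factor (0), and leaving out 1 library gave 0 to 1. With no limit on the fold, 2 members passed in *Eed* KO intestine, 1 between the *Eed* KO organs and 1 in the adult, and with RUVg 1 member was called in *Eed* KO intestine. In the adult, DESeq2 and the fit with no filter each called 1 member (*Kit* at 1.45 and 1.41), and leaving out 1 library gave 0 to 2.

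The directions that turned relative to that median were these. *Ano1* turned to -0.38 in the intestine and -0.58 in the stomach with RUVg. *Kit* between *Eed* KO organs was -0.013 with spike-in scaling and -0.045 in TPM. *Kitl* in the difference between organs was 0.014 with spike-in scaling and 0.070 with RUVg. Leaving out 1 library gave -0.36 to 0.025 for *Kitl* and -0.13 to 0.29 for *Ano1* in *Eed* KO intestine, -0.15 to 0.23 for *Ano1* in *Eed* KO stomach, -0.10 to 0.17 for *Kit* between *Eed* KO organs, and -0.22 to 0.16 for *Kitl* and -0.19 to 0.24 for *Ano1* in the difference between organs. Adult over embryonic control levels came to 1.88 for *Kitl* and -0.60 for *Etv1* in CPM in place of TPM, and without 1 library to -5.46 to -4.42 for *Kit*, 1.53 to 1.80 for *Kitl*, -2.47 to -1.93 for *Ano1* and -0.93 to -0.72 for *Etv1*.

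A replicate block changed no count of called members. Under it the edgeR adjusted p came under 0.05 for *Kit* between control organs (0.0424) and for *Kit* (0.0274) and *Etv1* (0.0347) in *Eed* KO stomach. A block by same-numbered organs of a genotype gave 0.0201 for *Kit* between control organs and 0.04998 for *Ano1* between *Eed* KO organs. Replicate numbers of the labels are not stated to mark shared embryos. Deviations of same-numbered libraries correlated at 0.347 between control organs, 0.821 between *Eed* KO organs, 0.212 and 0.150 between genotypes and -0.0874 in the adult. Over all genes, *Eed* KO intestine gave 423 calls, against 685 with DESeq2, 800 with no filter, 256 with RUVg, 244 with only the libraries compared and 13688 with spike-in scaling. *Eed* KO stomach gave 916, against 449 with RUVg and 15438 with spike-in scaling. Counts of calls with spike-in scaling over all genes are on the spike-in scale itself, not relative to the median gene. Spike-in scaling also gave 155 in place of 822 calls between control organs, 115 in place of 714 between *Eed* KO organs (397 with only the libraries compared) and 20 in place of 75 in the difference between organs, where DESeq2 gave 207, no filter 237, the block 187 and RUVg 170. The share of higher calls between control organs went from 33.2% to 45.2% with spike-in scaling, and in the adult from 63.0% to 46.6%. Requiring that peaks overlap by 50% left 3 of 5 shared *Kitl* regions and 2 of 4 shared *Etv1* regions.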

Other observations

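The genes whose log2 CPM followed each member most closely over the 8 embryonic libraries, out of 13386, were read as a description. The libraries share organ and genotype, so high values arise readily, and no p is given. *Kit* was closest to *Arhgdib* (r = 0.988), *Dfna5* (0.964) and *Cmtm3* (0.957). *Etv1* was closest to *Mfge8* (0.987), *Pde3a* (0.980) and *Cdc42ep4* (0.978), with *P2ry14* and *Nrg1* next (both 0.977). *Kitl* was closest to *Rabep1* (0.969) and *Lpp* (0.959), and *Ano1* to *Deptor* (0.980) and *Tbrg4* (0.967). Among the members, *Kitl* and *Etv1* were at 0.83, *Kitl* and *Ano1* at 0.77, *Kit* and *Etv1* at 0.74, and *Kit* and *Ano1* at -0.07.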
